A study of Homo sapiens with 17 samples.

Results

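The 10 genes examined here belong to the SR splicing factor family and its close relatives, and were followed across 17 RNA-seq libraries of MOLM13, an established human acute myeloid leukaemia cell line that carries the MLL-AF9 fusion oncogene. The members were taken by gene symbol: SRSF1, SRSF2, SRSF3, SRSF4, SRSF5, SRSF6, SRSF7, SRSF11, TRA2A and TRA2B, 10 of the 58278 gene identifiers in each library, and all 10 were matched. All 10 passed the filter on low counts in both experiments. In the HOXA9 and SAFB experiment, cells treated by CRISPR knockout of HOXA9 (HOXA9_KO, 3 libraries) or of SAFB (SAFB_KO, 3 libraries) were set beside cells given a non-targeting control (NT, 3 libraries). In the MEIS1 experiment, cells treated by CRISPR knockout of MEIS1 (MEIS1_KO, 4 libraries) were set beside their own non-targeting control (NT_MEIS1ex, 4 libraries). All 5 groups therefore share the MLL-AF9 fusion. The labels name no guide, no time after editing and no clone or bulk culture, and do not say whether libraries came from separate cultures, so p-values measure the spread between libraries, which may be technical.

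SR proteins carry an RNA recognition motif and a tail rich in arginine and serine. They bind exonic splicing enhancers in a nascent transcript and help the U1 and U2 particles to recognise the neighbouring splice sites, in opposition to many hnRNP proteins. SRPK kinases in the cytoplasm and CLK kinases in the nucleus phosphorylate the tail, transportin TNPO3 carries the proteins into the nucleus, and most SR genes limit their own output through a poison exon that sends the transcript to nonsense-mediated decay. In myeloid cancers SRSF2 is a recurrent target of mutation. HOXA9 and MEIS1 are transcription factors that sustain MLL-rearranged leukaemia, and SAFB is a nuclear protein that binds chromatin and RNA and associates with SR proteins.

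Levels are counts-per-million values (CPM) of assigned reads, scaled by the TMM method within each experiment. The 17 libraries held 23264176 to 67842104 reads assigned to genes. RNA of the targeted gene was lower in each knockout, with HOXA9 at 21.4 ± 0.445 CPM in HOXA9_KO and 40.9 ± 0.969 in NT (SD, n = 3), SAFB at 20.7 ± 1.42 in SAFB_KO and 38.3 ± 4.07 in NT (SD, n = 3), and MEIS1 at 11.2 ± 1.10 in MEIS1_KO and 32.4 ± 0.824 in NT_MEIS1ex (SD, n = 4). MEIS1 RNA was also at 16.8 ± 0.816 CPM in HOXA9_KO (SD, n = 3), against 49.1 ± 1.06 in NT. Of 10 markers of MOLM13 and myeloid cells, 9 reached 1 CPM in every group of the HOXA9 and SAFB experiment, where CSF2RA was at 0, and all 10 did in the MEIS1 experiment. CSF2RA was at 54.4 CPM in NT_MEIS1ex and 61.8 in MEIS1_KO. Whether the cells or the mapping and counting differed between the experiments was not tested. The summed level of the 10 markers, most of it from the lysozyme gene LYZ, ran from 5879 to 6005 CPM in NT, 29406 to 32341 in HOXA9_KO, 13720.5 to 15432 in SAFB_KO, 4458 to 6153 in NT_MEIS1ex and 7971 to 8330 in MEIS1_KO. LYZ was at 4152 CPM in NT, against 29694 for HOXA9_KO and 12820 for SAFB_KO. With the groups in that order, SPI1 (74.2, 178 and 106 CPM), CD33 (59.8, 110 and 87.2 CPM) and PTPRC (438, 502 and 445 CPM) also had higher means in both knockouts. FLT3 (675, 321 and 547 CPM) and MEF2C (378, 144 and 318 CPM) were lower in both knockouts than in NT. The means of KMT2A, HOXA9 and MEIS1 were likewise lower in both. Of 8 markers of the erythroid and megakaryocyte lineage none reached 1 CPM in any group, their summed level stayed between 0.286 and 0.825 CPM, and 3 to 5 of them were at 0. Of 8 lymphoid markers 1 to 3 did, and most of their summed level of 93.9 to 160.8 CPM came from NCAM1, which was at 95.5 CPM in NT. Reads outside genes made up 16.4 to 18.1% in NT, 8.65 to 9.27% in HOXA9_KO, 10.6 to 12.7% in SAFB_KO, 6.07 to 8.47% in NT_MEIS1ex and 7.58 to 9.15% in MEIS1_KO. Mitochondrial ribosomal RNA took 25.1%, 33.9% and 25.7% of assigned reads in NT, HOXA9_KO and SAFB_KO, while no MEIS1_KO or NT_MEIS1ex library exceeded 0.00941%. These shares move with the groups, and their part in the results below was not tested.

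Promoter sequence of 8 members was found in RefSeq (GRCh38.p14); SRSF2 and TRA2A were not matched. Each window runs from 250 bases before the RefSeq start to 25 bases after it, 275 bases in all. The windows of TRA2B, SRSF3 and SRSF6 are shown because, in the values below, TRA2B had the largest fall in HOXA9_KO, SRSF3 fell with the bulk of the family, and SRSF6 fell in HOXA9_KO but was called higher in SAFB_KO. They lie at chr3:185937990-185938264 on the minus strand, chr6:36594112-36594386 on the plus strand and chr20:43457646-43457920 on the plus strand, and are written 5′ to 3′ on the gene's strand. Capitals mark matches on either strand to the TATA box (TATAAA), the CCAAT box (CCAAT), the GC box (GGGCGG) and the E2F string (TTTNNCGC).
TRA2B: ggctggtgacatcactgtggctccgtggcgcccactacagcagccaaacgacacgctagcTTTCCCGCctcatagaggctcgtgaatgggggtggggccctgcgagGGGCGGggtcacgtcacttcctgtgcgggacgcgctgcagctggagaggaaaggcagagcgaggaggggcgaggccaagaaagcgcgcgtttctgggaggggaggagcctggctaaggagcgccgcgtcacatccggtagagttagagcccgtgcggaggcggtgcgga
SRSF3: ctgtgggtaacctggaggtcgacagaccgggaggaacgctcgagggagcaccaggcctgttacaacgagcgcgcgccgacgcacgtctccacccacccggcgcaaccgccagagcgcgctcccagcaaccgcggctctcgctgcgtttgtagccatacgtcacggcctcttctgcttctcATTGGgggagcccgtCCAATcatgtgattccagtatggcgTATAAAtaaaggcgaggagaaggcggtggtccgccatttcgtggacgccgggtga
SRSF6: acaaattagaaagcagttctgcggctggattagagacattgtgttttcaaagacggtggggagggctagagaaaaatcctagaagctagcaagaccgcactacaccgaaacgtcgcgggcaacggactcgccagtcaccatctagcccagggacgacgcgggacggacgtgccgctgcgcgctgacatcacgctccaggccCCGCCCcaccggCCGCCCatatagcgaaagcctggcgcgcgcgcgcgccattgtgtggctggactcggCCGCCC
The SRSF3 window holds TATAAA at position -30 from the start and a pair of CCAAT matches at -70 and -55. The SRSF6 window holds 3 GC boxes (GGGCGG, at -49, -37 and 20), and the TRA2B window a GC box at -144 and the E2F string TTTNNCGC at -190. A set of 12 strings was searched on both strands, and no string contains another.

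Members shared no single promoter string. TATAAA was found in 2 of 8 members (SRSF3 and SRSF11) and in 11.6% of all 27305 promoters of the same length, CCAAT in 1 of 8 and 34.5%, and GGGCGG in 4 of 8 (SRSF4, SRSF6, SRSF7 and TRA2B) and 43.5%. The ETS string CCGGAAG was found in SRSF4 and SRSF5 and in 10.2% of all promoters, and the E2F string TTTNNCGC in TRA2B alone and 6.43%. The MEIS string TGACAG (14.5% of all promoters), the HOX-PBX string TGATTTAT (0.828%), the E-box CACGTG (7.06%), the cAMP response element TGACGTCA (1.97%), the NRF1 motif (1.32%), the YY1 string AAGATGGC (2.22%) and the palindromic Kaiso motif (0.469%) were found in none of the 8 windows. A match is a string of letters and says nothing of binding.

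The members lie on 8 chromosomes and have 2 to 19 annotated transcripts. By GENCODE 29 on GRCh38, SRSF6 lies on chromosome 20 (43457928 to 43464247, plus strand, 2 transcripts), SRSF3 on chromosome 6 (36594353 to 36605600, plus strand, 8 transcripts) and TRA2B on chromosome 3 (185915906 to 185938136, minus strand, 16 transcripts). SRSF1 (58003360 to 58007346) and SRSF2 (76734115 to 76737374) lie on the minus strand of chromosome 17. SRSF4 (29147743 to 29181987, minus strand) and SRSF11 (70205682 to 70253052, plus strand) lie on chromosome 1. SRSF5 lies on chromosome 14 (69726900 to 69772005, plus strand), SRSF7 on chromosome 2 (38743599 to 38751494, minus strand) and TRA2A on chromosome 7 (23504780 to 23532041, minus strand). Transcripts annotated for nonsense-mediated decay were listed for every member, 6 of 12 for SRSF7 and 3 of 9 for SRSF1. Retained-intron transcripts were listed for 8 members, 8 of 19 for SRSF5 and 8 of 16 for TRA2B. The counts are summed over each gene and do not separate these forms from the coding transcript.

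A few members share exon sequence with a neighbour. In SRSF1, 56.6% of the exon bases also belong to a protein-coding gene model on the same strand (ENSG00000266086), which itself stood at 0.0484 CPM or less in every group; how the counting treated reads in the shared stretch was not tested. In SRSF2, 36.7% of exon bases overlap MFSD11 on the opposite strand, which was at 11.7 CPM in NT and 10.6 in HOXA9_KO. On the opposite strand 13.2% of SRSF1 exon bases overlap the gene model ENSG00000279069, which was at 1.34 CPM in NT. On the same strand 3.28% of SRSF2 exon bases overlap MIR636, which was at 0 CPM in every group. Levels of SRSF1 and SRSF2 are uncertain to that extent. The overlap was 1.90% for SRSF4 and 0 for the other 7 members.

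Divided by exon length, SRSF1, an oncogenic splicing factor that shuttles between nucleus and cytoplasm, had the highest mean level in every group, and SRSF4 had the lowest. The length is that of all annotated exons merged, 8893 bases for SRSF4 and 3516 for TRA2A, and the order depends on it. Before this division TRA2A was the lowest in NT, at 20.5 CPM against 49.0 for SRSF4. In NT the order in CPM per kilobase of exon was SRSF1 at 80.5 ± 2.84, SRSF2 at 51.2 ± 0.590, SRSF3 at 34.8 ± 0.574, SRSF6 at 33.1 ± 0.690, SRSF7 at 26.6 ± 0.760, SRSF5 at 24.3 ± 0.0294, TRA2B at 20.6 ± 0.457, SRSF11 at 14.3 ± 1.40, TRA2A at 5.83 ± 0.914 and SRSF4 at 5.51 ± 0.177 (SD, n = 3). Neighbours in this order did not overlap between libraries except TRA2A and SRSF4, which also overlapped in SAFB_KO. In HOXA9_KO and SAFB_KO SRSF6 stood above SRSF3, at 30.4 ± 0.944 against 26.5 ± 0.872 and at 35.2 ± 0.689 against 32.6 ± 0.967 CPM per kilobase (SD, n = 3).

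In NT_MEIS1ex SRSF6 was second in the order, at 67.9 ± 3.30 CPM per kilobase (SD, n = 4), and TRA2A stood above SRSF11, at 13.8 ± 0.501 against 10.7 ± 0.453. The ratio of the mean CPM in NT_MEIS1ex to that in NT was 2.36 for TRA2A, 2.05 for SRSF6, 1.45 for SRSF7, 1.42 for SRSF4 and 1.33 for SRSF3. It was 1.11 for SRSF2, 1.09 for SRSF1, 0.881 for TRA2B, 0.826 for SRSF5 and 0.749 for SRSF11. The experiments were scaled separately and differ in library composition, so a difference between the 2 control groups cannot be told apart from one between the experiments, and it was not tested.

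**Figure D1:**
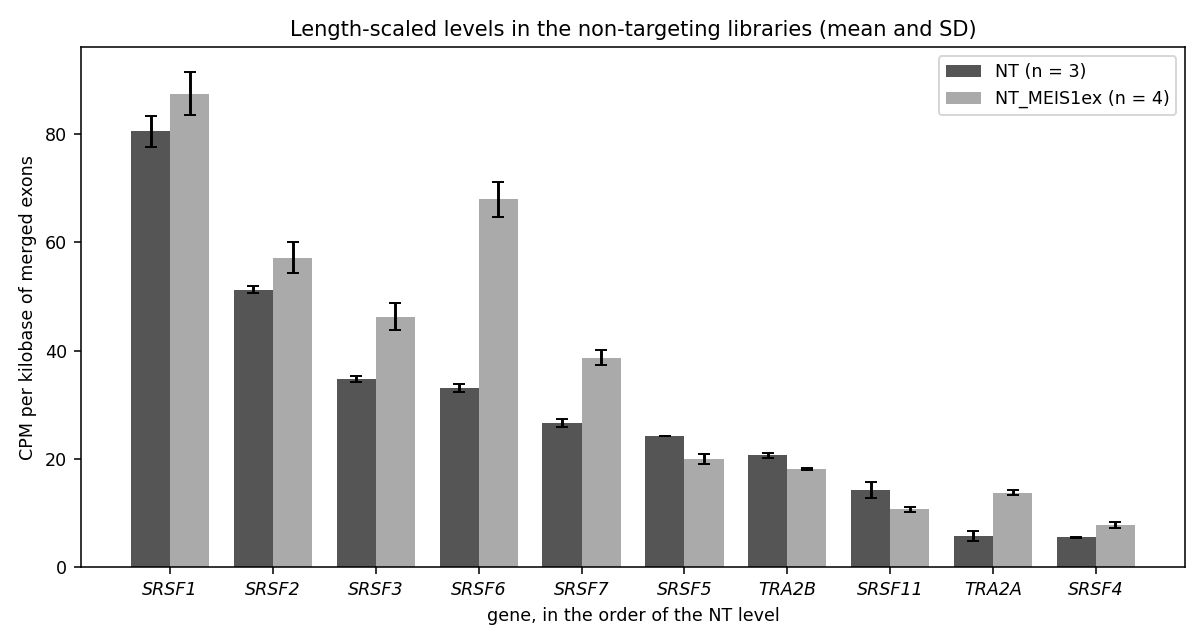
Mean level of each member in CPM per kilobase of merged exons (bars, with SD) in the 3 NT and 4 NT_MEIS1ex libraries, genes ordered by the NT level. SRSF1 is highest in both, and SRSF6 and TRA2A have the largest ratios between the control groups (2.05 and 2.36).

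In HOXA9_KO the transcripts of nearly all of these 10 genes were lower. Of 10 members 9 fell in HOXA9_KO against NT, TRA2A did not pass the test, and none rose. Among all 18876 genes tested 29.9% were called lower and 27.6% higher, and among the 6559 genes with a mean of at least 20 CPM 28.3% were called lower and 48.4% higher. The members' median log2 difference was -0.38, against -0.07 over all genes tested and 0.10 over the genes of at least 20 CPM. TRA2A averaged just under 20 CPM over the libraries of this experiment and is not among the latter genes. The summed level of the 10 members was 1511, 1494 and 1477 CPM in the NT libraries and 1158, 1112 and 1131 CPM in HOXA9_KO. In bulk RNA, fewer cells of a type and less RNA per cell cannot be told apart.

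TRA2B, a human counterpart of the fly transformer-2 protein that binds GAA-rich enhancers, changed most. It measured 248, 244 and 237 CPM in the controls and 158, 151 and 157 CPM in the knockout, with no overlap between the groups. The log2 difference was -0.64 ± 0.03 (SE; edgeR's quasi-likelihood test, adjusted p = 6.83e-23), which left 64.0% of the control level.

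SRSF2, an enhancer-binding protein of nuclear speckles, had the second largest fall. Its libraries measured 153, 157 and 154 CPM in the controls and 111, 107 and 107 CPM in the knockout. Every knockout library lay below every control library, with a log2 difference of -0.51 ± 0.03 (SE; edgeR, adjusted p = 1.95e-18) and 70.0% of the control level left.

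SRSF3 and SRSF7, a pair of small proteins that also serve mRNA export, moved by similar amounts. SRSF7 measured 111, 108 and 104 CPM in the controls and 82.6, 79.6 and 78.3 CPM in the knockout, a log2 difference of -0.43 ± 0.04 (SE; edgeR, adjusted p = 9.05e-14). SRSF3 measured 249, 243 and 251 CPM in the controls and 193, 181 and 191 CPM in the knockout, a log2 difference of -0.39 ± 0.03 (SE; edgeR, adjusted p = 7.94e-15). Neither gene overlapped between the groups.

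SRSF1 measured 259, 278 and 269 CPM in the controls and 209, 202 and 207 CPM in the knockout. It fell by 0.38 ± 0.03 on the log2 scale (SE; edgeR, adjusted p = 1.81e-14), and its groups did not overlap. SRSF11, a more distant relative with an arginine-serine tail, measured 134, 111 and 117 CPM in the controls, where replicate 1 was the highest, and 93.4, 95.5 and 89.7 CPM in the knockout. It fell by 0.38 ± 0.05 on the log2 scale (SE; edgeR, adjusted p = 1.22e-06), also without overlap.

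SRSF4, SRSF5 and SRSF6, which like SRSF1 carry a pair of RNA recognition motifs, had smaller log2 differences. SRSF5 was close to constant in NT, at 130.0, 129.9 and 130.3 CPM, and measured 110.2, 97.6 and 100.4 CPM in the knockout, a log2 difference of -0.34 ± 0.04 (SE; edgeR, adjusted p = 5.10e-11). SRSF4 measured 48.5, 50.7 and 47.7 CPM in the controls and 35.8, 42.0 and 39.7 CPM in the knockout, a log2 difference of -0.32 ± 0.06 (SE; edgeR, adjusted p = 2.19e-06). SRSF6 measured 155, 152 and 149 CPM in the controls and 144, 135 and 139.7 CPM in the knockout, the smallest of the 9 falls, with a log2 difference of -0.13 ± 0.03 (SE; edgeR, adjusted p = 0.00167). The groups of all 3 genes were separate. Over all genes tested, 33.5% had every HOXA9_KO library below every NT library.

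TRA2A, the paralogue of TRA2B, was the exception. It measured 24.0, 19.9 and 17.6 CPM in the controls and 21.4, 21.4 and 20.7 CPM in the knockout, so the knockout libraries lay within the range of the controls. The log2 difference was 0.04 ± 0.08 (SE; edgeR, adjusted p = 0.706). It was 0.18 without NT replicate 1 (adjusted p = 0.0481) and -0.21 with the counts of nuclear protein-coding genes as library size (adjusted p = 0.0262), so its direction depends on these choices. That scaling moved the median of all genes by -0.25, gave 2861 genes higher and 9293 lower in place of 5207 and 5640, and called all 10 members lower. Relative to the median of all genes the members' median was -0.31 under both scalings. Scaling moves all genes of a library alike, so this value could hardly differ and does not test the choice of scaling.

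**Figure D2:**
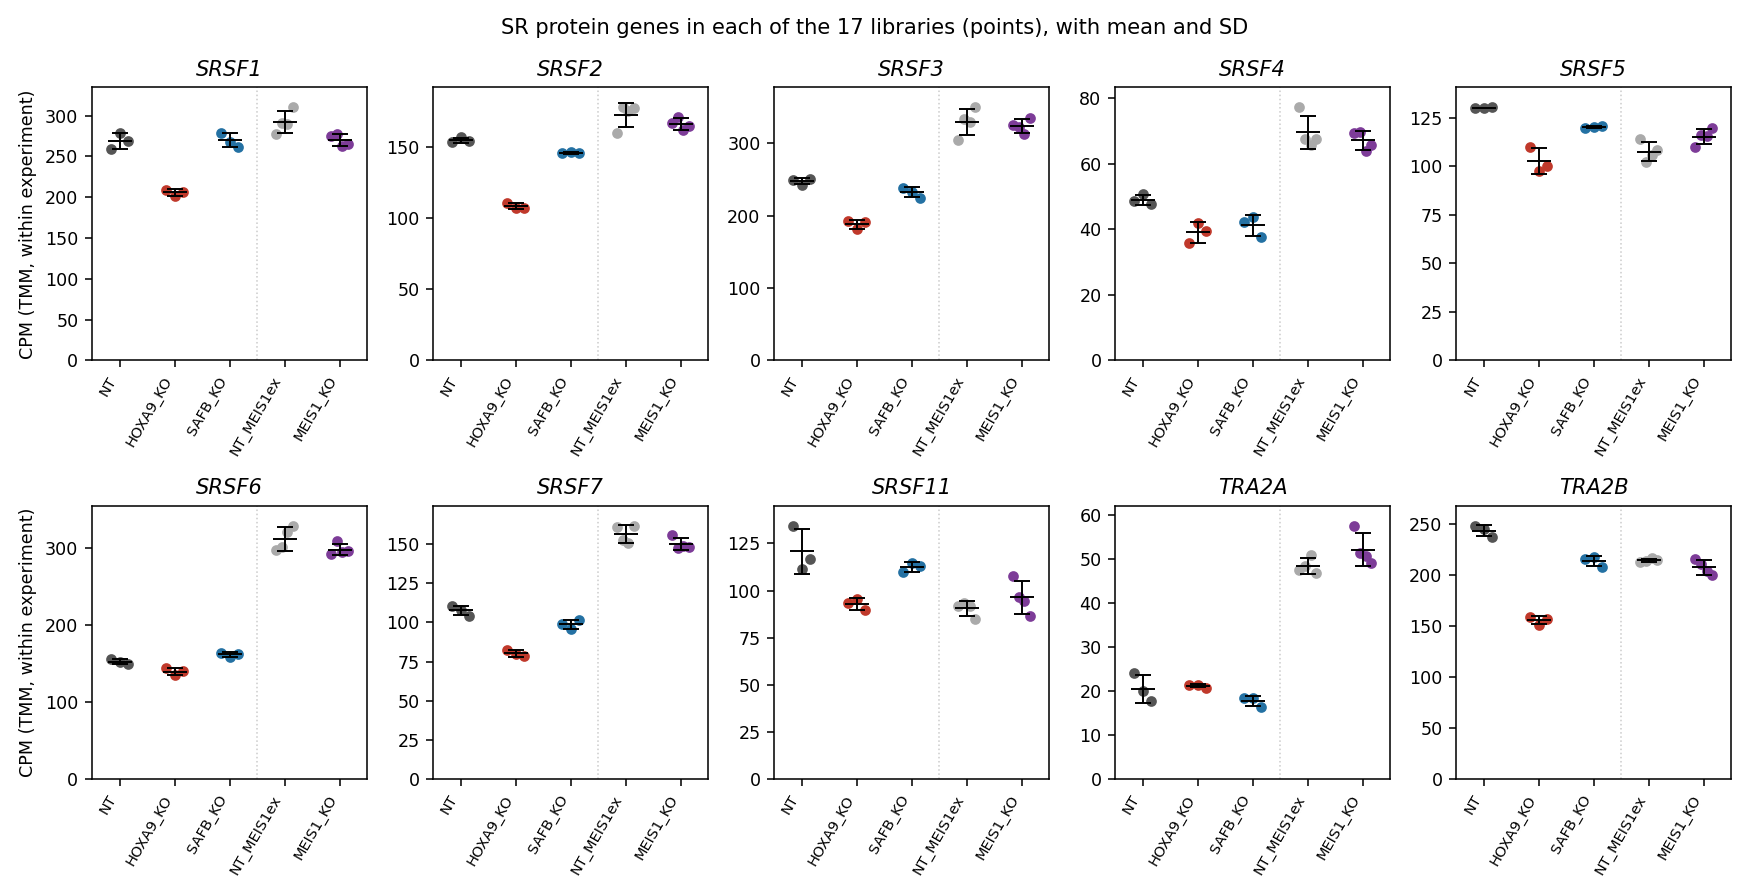
CPM of each member (TMM within experiment, axes from 0) in every library (points) of the 5 groups, with the mean and SD as bars; the dotted line parts the 2 experiments. The HOXA9_KO points lie below all NT points for every member except TRA2A, from 158 against 237 CPM at the nearest for TRA2B to 144 against 149 CPM for SRSF6.

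In SAFB_KO the shifts were smaller. Against NT 7 members fell, SRSF6 rose (though not with the counts of nuclear protein-coding genes as library size), and SRSF1 and SRSF11 did not pass the test. Over all 18876 genes tested 15.3% were called lower and 20.2% higher, and over the genes of at least 20 CPM 14.2% and 42.4%. The members' median log2 difference was -0.11, against -0.02 over all genes tested and 0.09 over the genes of at least 20 CPM. The summed level of the members was 1431, 1415 and 1393 CPM in SAFB_KO, below each NT library. This comparison and the one above share the 3 NT libraries, so likeness between them is not independent.

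SRSF4 had the largest fall in SAFB_KO. It stood at 42.2, 43.8 and 37.7 CPM, below its NT libraries of 48.5, 50.7 and 47.7 CPM, with a log2 difference of -0.25 ± 0.05 (SE; edgeR, adjusted p = 2.92e-04). TRA2B stood at 215, 217 and 208 CPM, below all NT libraries, with a log2 difference of -0.19 ± 0.03 (SE; edgeR, adjusted p = 6.10e-06). These 2 calls held in all 18 alternatives tried for this comparison, with log2 differences of -0.38 to -0.19 for SRSF4 and -0.33 to -0.17 for TRA2B.

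In 4 further members, SRSF7, SRSF5, SRSF3 and SRSF2, as in SRSF4 and TRA2B, every SAFB_KO library lay below every NT library, as in 22.3% of all genes tested. SRSF7 stood at 98.9, 95.7 and 102 CPM, with a log2 difference of -0.13 ± 0.04 (SE; edgeR, adjusted p = 0.00681). SRSF5 stood at 119.7, 120.0 and 121 CPM, with a log2 difference of -0.11 ± 0.04 (SE; edgeR, adjusted p = 0.0136). The level left was 91.6% of the control for SRSF7 and 92.4% for SRSF5. The SRSF7 call was lost without SAFB_KO replicate 2 (adjusted p = 0.0742), and the SRSF5 call without SAFB_KO replicate 1 (adjusted p = 0.0559) and with DESeq2 (adjusted p = 0.0520).

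SRSF3 and SRSF2 were called with smaller margins. SRSF3 stood at 239, 233 and 225 CPM, with a log2 difference of -0.09 ± 0.03 (SE; edgeR, adjusted p = 0.0233), and lost its call in 7 of 18 alternatives. SRSF2 stood at 145, 146 and 146 CPM, with a log2 difference of -0.08 ± 0.03 (SE; edgeR, adjusted p = 0.0455), and lost its call in 12 of 18. In both genes the groups did not overlap, and the difference stayed below 0 in all 18 alternatives.

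TRA2A stood at 18.3, 18.3 and 16.4 CPM in SAFB_KO, overlapping its NT range of 17.6 to 24.0 CPM. It was called lower, with a log2 difference of -0.22 ± 0.08 (SE; edgeR, adjusted p = 0.0278), but lost its call in 5 of 18 alternatives: without NT replicate 1 (-0.09, adjusted p = 0.431), without SAFB_KO replicate 1 or 3, with DESeq2, and with only the groups compared. SRSF6 stood at 164, 158 and 163 CPM, above its 3 NT libraries of 149 to 155 CPM, as did 24.1% of all genes. Its log2 difference was 0.09 ± 0.03 (SE; edgeR, adjusted p = 0.0401); it lost its call in 8 of 18 alternatives and was -0.05 with the counts of nuclear protein-coding genes as library size. SRSF11 (109.6, 114 and 113 CPM) and SRSF1 (279, 268 and 262 CPM) overlapped their NT libraries, with log2 differences of -0.11 ± 0.05 and 0.00 ± 0.03 (SE; edgeR, adjusted p = 0.110 and 0.932). SRSF11 ran from -0.02 without NT replicate 1 to -0.16 without NT replicate 2, where it was called (adjusted p = 0.00523), as it was with a mean of at least 2 CPM and with the counts of nuclear protein-coding genes as library size.

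With DESeq2 in place of edgeR 3 members were called lower in SAFB_KO, with limma-voom 7, and both called SRSF6 higher. Without NT replicate 1, or without any 1 of the SAFB_KO libraries, 4 members were called lower. With the counts of nuclear protein-coding genes as library size 9 members were lower and none higher, beside 5535 genes lower and 1712 higher, and the median of all genes moved by -0.14.

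**Figure D3:**
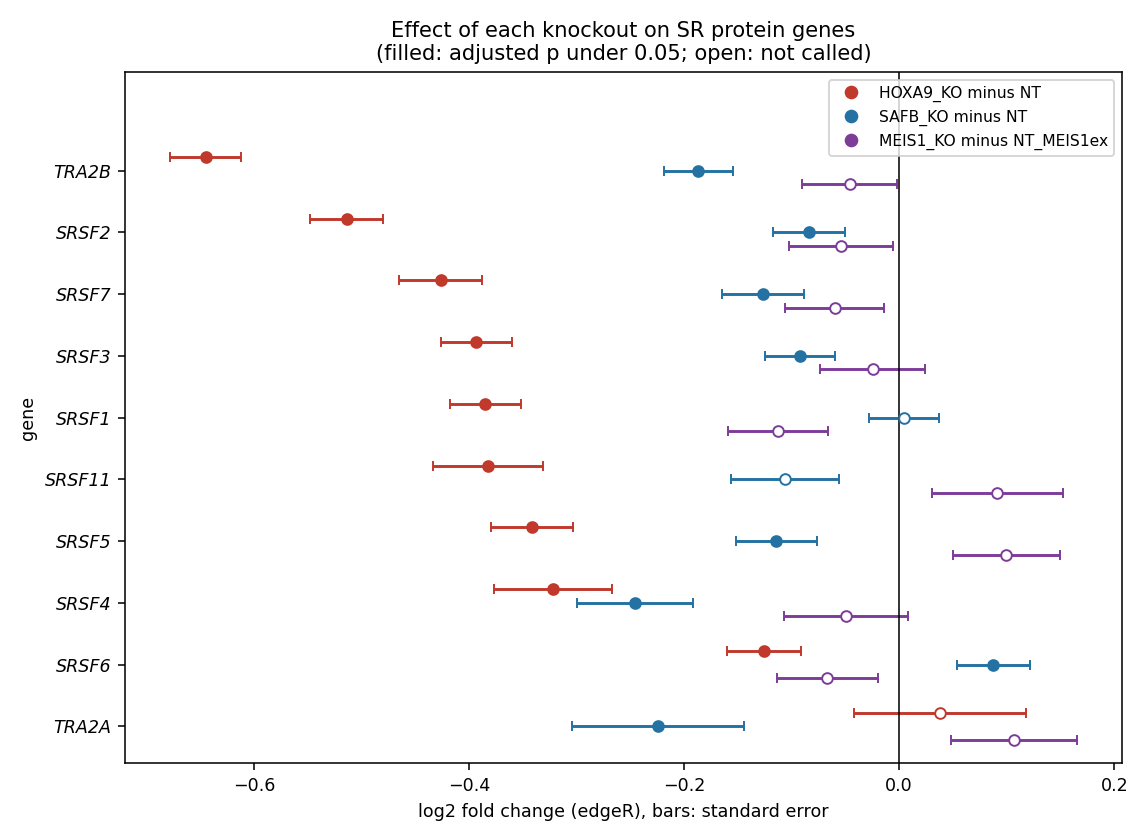
Log2 fold change of each member against its own controls (points, with standard error) in HOXA9_KO, SAFB_KO and MEIS1_KO; filled points were called at an adjusted p under 0.05. The HOXA9_KO points run from -0.64 for TRA2B to 0.04 for TRA2A, and no MEIS1_KO point is filled.

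The 2 knockouts of the same experiment were then compared directly. In all, 8 members were lower in HOXA9_KO than in SAFB_KO, TRA2A was higher, and SRSF4 did not pass the test, where 20.5% of all genes were called lower and 20.1% higher. The members' median log2 difference was -0.29, against -0.02 over all genes tested. TRA2B had the largest difference, -0.46 ± 0.03 (SE; edgeR, adjusted p = 1.18e-16), followed by SRSF2 at -0.43 ± 0.03 (SE; adjusted p = 4.62e-15) and SRSF1 at -0.39 ± 0.03 (SE; adjusted p = 3.55e-14). For each of the 8 genes every HOXA9_KO library lay below every SAFB_KO library, which held for 24.6% of all genes tested. SRSF1 therefore differed between the knockouts while its SAFB_KO level overlapped that of NT.

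SRSF4 was the member with the nearest levels, 35.8 to 42.0 CPM in HOXA9_KO and 37.7 to 43.8 CPM in SAFB_KO. The difference was -0.08 ± 0.06 on the log2 scale (SE; edgeR, adjusted p = 0.309). TRA2A was 0.26 ± 0.08 higher on that scale in HOXA9_KO (SE; edgeR, adjusted p = 0.0112), with libraries of 20.7 to 21.4 CPM against 16.4 to 18.3 CPM and no overlap, as in 23.6% of all genes. That call was lost with the counts of nuclear protein-coding genes as library size, where the difference was 0.15 (adjusted p = 0.171) and SRSF4 was called lower at -0.19 (adjusted p = 0.00935).

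In MEIS1_KO no member passed the test. None of the 10 was called by edgeR, limma-voom or DESeq2, where edgeR called 4.97% of 15744 tested genes higher and 3.84% lower, and of the genes of at least 20 CPM 6.14% and 6.10%. At an unadjusted p under 0.05 the count was 1 of 10 members and 3725 of all genes. The members' median log2 difference was -0.05, against 0.00 over all genes tested and -0.02 over the genes of at least 20 CPM.

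SRSF1 was the member with the smallest p. It measured 278, 291, 289 and 309.8 CPM in its controls and 275, 277, 263 and 265 CPM in the knockout. Every knockout library lay below every control library, as in 7.28% of all genes (8.43% had the reverse order), and the log2 difference was -0.11 ± 0.05 (SE; edgeR, adjusted p = 0.145). Without NT_MEIS1ex replicate 1 it was -0.14, and was called (adjusted p = 0.0431).

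TRA2B, the gene that fell most in HOXA9_KO, measured 212, 213, 216 and 214 CPM in its controls and 216, 210.4, 204 and 199.5 CPM in the knockout. The groups overlapped, and the log2 difference was -0.05 ± 0.04 (SE; edgeR, adjusted p = 0.576). SRSF2 stood at 159.6, 178, 175 and 177 CPM in NT_MEIS1ex, with replicate 1 apart from the other libraries, and at 162 to 171 CPM in MEIS1_KO. Its log2 difference was -0.05 ± 0.05 (SE; edgeR, adjusted p = 0.545).

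Both signs occurred among the other members. SRSF5 stood at 102 to 114 CPM in NT_MEIS1ex and 109.8 to 119 CPM in MEIS1_KO, TRA2A at 46.9 to 50.9 and 48.9 to 57.4 CPM, and SRSF11 at 84.9 to 93.5 and 86.4 to 108 CPM. Their log2 differences were 0.10 ± 0.05, 0.11 ± 0.06 and 0.09 ± 0.06 (SE; edgeR, adjusted p = 0.234, 0.288 and 0.398). SRSF7, SRSF6, SRSF4 and SRSF3 had log2 differences of -0.06 ± 0.05, -0.07 ± 0.05, -0.05 ± 0.06 and -0.02 ± 0.05 (SE; edgeR, adjusted p = 0.469, 0.425, 0.654 and 0.814). All 7 genes overlapped between the groups. The summed level of the members was 1744 to 1849 CPM in NT_MEIS1ex and 1709 to 1775 CPM in MEIS1_KO.

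**Figure D4:**
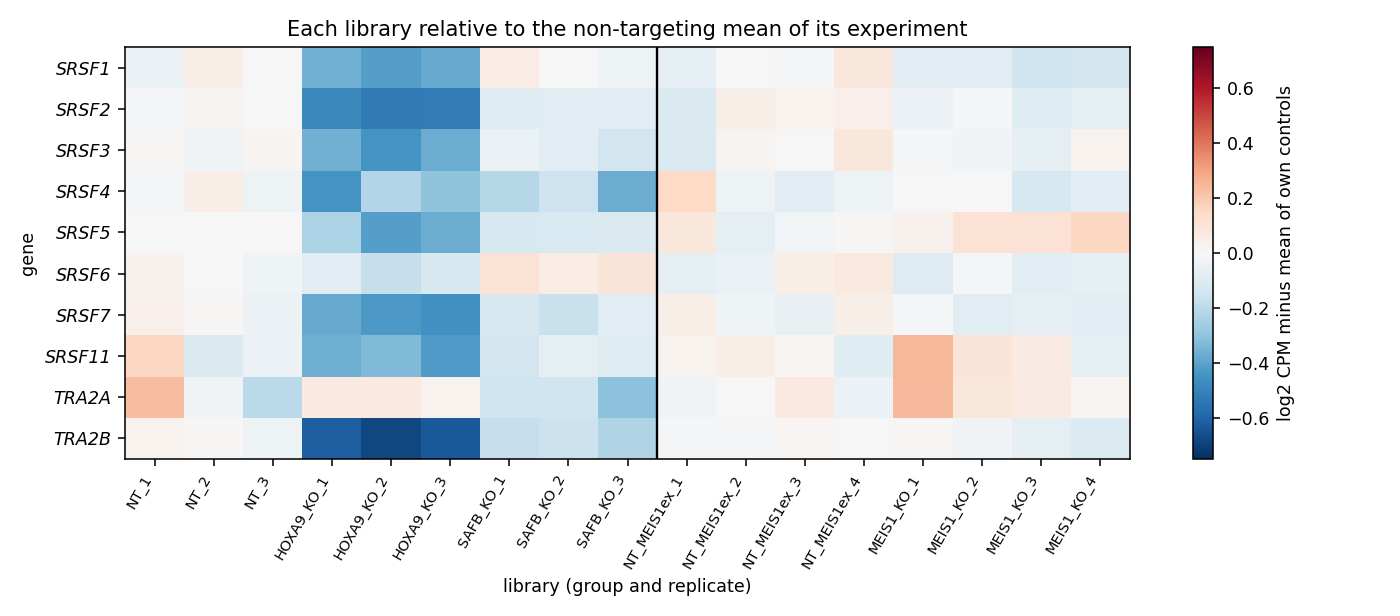
Log2 CPM of each member (rows) in each of the 17 libraries (columns) minus the mean of the non-targeting libraries of its own experiment; blue is lower, red higher, and the black line parts the experiments. Rows other than TRA2A are blue in the 3 HOXA9_KO libraries, down to the TRA2B row at 155 against 243 CPM on average.

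Whether a knockout effect differed between the experiments was tested in a fit of all 17 libraries. The HOXA9 effect was below the MEIS1 effect for 8 members, all but SRSF6 and TRA2A, where 19.7% of 18836 genes were called lower and 24.5% higher. The difference of log2 effects was largest for TRA2B, -0.56 ± 0.06 (SE; edgeR, adjusted p = 1.24e-09), SRSF11, -0.43 ± 0.09 (SE; adjusted p = 9.34e-05), and SRSF2, -0.42 ± 0.06 (SE; adjusted p = 5.88e-07). For SRSF4 it was -0.23 ± 0.09 (SE; edgeR, adjusted p = 0.0338), a call lost in 13 of 25 alternatives. For SRSF6 it was -0.02 ± 0.06 and for TRA2A -0.03 ± 0.10 (SE; edgeR, adjusted p = 0.866 and 0.869). Each effect is measured against its own controls, and experiment and targeted gene cannot be told apart in the difference.

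The SAFB effect was below the MEIS1 effect for SRSF5, by -0.20 ± 0.07, and TRA2A, by -0.32 ± 0.10 (SE; edgeR, adjusted p = 0.0317 and 0.0262), where 8.49% of all genes were called lower and 12.4% higher. The SRSF5 call was lost in 15 of 25 alternatives and the TRA2A call in 4 of 25, among them the fit without NT replicate 1 (-0.18, adjusted p = 0.205). No member was called higher by edgeR, with SRSF6 nearest at 0.16 ± 0.06 (SE; adjusted p = 0.0608). One member was called higher with DESeq2, limma-voom or RLE factors.

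Members followed each other to different degrees. After each library was centred on the non-targeting mean of its experiment, Pearson's r of a member with the mean of the other 9 members over the 17 libraries was 0.99 for TRA2B, 0.96 for SRSF7, 0.95 for SRSF2 and 0.94 for SRSF3. It was 0.86 for SRSF11 and SRSF5, 0.81 for SRSF1, 0.74 for SRSF4, 0.41 for SRSF6 and -0.02 for TRA2A. These values describe the libraries: they share scaling factors and the 3 HOXA9_KO libraries, and carry no test. Among 10456 other protein-coding genes, those nearest to the members' mean profile were ZRANB2 (r = 0.99), a zinc finger protein with an arginine-serine tail, SRSF10 (0.99), the SUMO protease gene SENP6 (0.99), the mitotic kinase gene NEK2 (0.99) and the chromatin organiser gene SATB1 (0.99). Their log2 differences in HOXA9_KO were -0.72, -0.50, -1.36, -1.26 and -0.99, and in SAFB_KO -0.23, -0.16, -0.41, -0.30 and -0.31. Since these genes were picked for their profile over the same libraries, these differences follow from the choice and are a description only.

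The other 4 SR genes differed in direction, with 2 called higher and 1 lower in HOXA9_KO and likewise in SAFB_KO. Over all genes tested 27.6% were higher and 29.9% lower in HOXA9_KO, and 20.2% and 15.3% in SAFB_KO. With 4 genes these counts are no result about the list. SRSF10, a splicing repressor when dephosphorylated, fell by 0.50 ± 0.04 on the log2 scale in HOXA9_KO and by 0.16 ± 0.04 in SAFB_KO (SE; edgeR, adjusted p = 5.49e-17 and 2.53e-04). SRSF9 and SRSF8 rose, by 0.24 ± 0.05 and 0.26 ± 0.07 in HOXA9_KO and by 0.21 ± 0.05 and 0.31 ± 0.07 in SAFB_KO (SE; edgeR, adjusted p = 3.25e-05, 0.00120, 5.06e-04 and 2.85e-04). SRSF12 passed no test, and in MEIS1_KO none of the 3 genes tested was called.

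Genes that act on SR proteins moved in both directions. Of 12 kinases, phosphatase subunits and importers, 5 were higher and 5 lower in HOXA9_KO, 4 and 3 in SAFB_KO, and 1 and 1 in MEIS1_KO. For this list and those that follow, the shares over all genes tested are 27.6% higher and 29.9% lower in HOXA9_KO, 20.2% and 15.3% in SAFB_KO, and 4.97% and 3.84% in MEIS1_KO; over the genes of at least 20 CPM they are 48.4% and 28.3%, 42.4% and 14.2%, and 6.14% and 6.10%. Some listed genes, such as UPF3B and U2AF1, lie below 20 CPM themselves. Counts near these shares are no result about a list. SRPK1, the main cytoplasmic kinase of the tail, rose by 0.50 ± 0.03 in HOXA9_KO and 0.23 ± 0.03 in SAFB_KO, and fell by 0.18 ± 0.05 on the log2 scale in MEIS1_KO (SE; edgeR, adjusted p = 2.46e-18, 1.79e-07 and 0.0394). The importer gene TNPO3 rose by 0.36 ± 0.04 in HOXA9_KO and 0.16 ± 0.04 in SAFB_KO (SE; edgeR, adjusted p = 2.29e-12 and 2.48e-04). The nuclear kinase gene CLK2 fell by 0.56 ± 0.05 on the log2 scale in HOXA9_KO, and CLK1 by 0.23 ± 0.05 in SAFB_KO (SE; edgeR, adjusted p = 1.19e-14 and 9.86e-05). Both genes were below NT in the other knockout as well. CLK1 was at 43.5 to 49.1 CPM in HOXA9_KO, against 63.2 to 66.6 CPM in NT. CLK2 was at 48.2 to 51.9 CPM in SAFB_KO, against 54.8 to 57.7 CPM in NT. The kinase gene PRPF4B rose by 0.22 ± 0.06 in MEIS1_KO (SE; edgeR, adjusted p = 0.0451).

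Of 33 SR-related and arginine-serine domain genes 4 were higher and 18 lower in HOXA9_KO (all genes 27.6% and 29.9%), with a median log2 difference of -0.14, led by ZRANB2, LUC7L3 at -0.76 ± 0.04 and NKTR at -0.63 ± 0.04 (SE; edgeR, adjusted p = 8.00e-21 and 9.17e-17). In SAFB_KO 4 were higher and 10 lower (all genes 20.2% and 15.3%), with LUC7L3 at -0.41 ± 0.04, NKTR at -0.33 ± 0.04 and RBM39 at -0.23 ± 0.03 (SE; edgeR, adjusted p = 2.22e-11, 2.57e-08 and 1.06e-07). In MEIS1_KO RSRC2 was higher, by 0.25 ± 0.07 (SE; edgeR, adjusted p = 0.0337).

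The hnRNP genes, whose products often oppose SR proteins, gave 4 higher and 15 lower of 27 in HOXA9_KO (all genes 27.6% and 29.9%), with a median of -0.19. HNRNPU and HNRNPH1 stood at -0.69 ± 0.03 each, and PTBP3 at 0.65 ± 0.03 (SE; edgeR, adjusted p = 1.72e-26, 4.22e-26 and 1.16e-24). In SAFB_KO 6 were higher and 3 lower, close to the shares over all genes (20.2% and 15.3%), with a median of 0.01. Over genes of at least 20 CPM the shares were 42.4% and 14.2%. In MEIS1_KO RBMX was lower by -0.19 ± 0.05 (SE; edgeR, adjusted p = 0.0132).

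Core spliceosome genes gave 9 higher and 12 lower of 34 in HOXA9_KO, with a median of -0.06. This is near the shares over all genes (27.6% and 29.9%), but not those over genes of at least 20 CPM (48.4% and 28.3%). In SAFB_KO 13 were higher and 3 lower, with a median of 0.08. This is near the shares over genes of at least 20 CPM (42.4% and 14.2%), but not those over all genes (20.2% and 15.3%). The reading depends on the reference, and neither was tested. The U2 protein gene SNRPB2 and the tri-snRNP gene PRPF6 rose in both, by 0.38 ± 0.04 and 0.33 ± 0.04 in HOXA9_KO and by 0.19 ± 0.04 and 0.27 ± 0.04 in SAFB_KO (SE; edgeR, adjusted p = 5.59e-12, 2.25e-09, 1.07e-04 and 1.19e-06). SF3B1, of the same list, fell by 0.22 ± 0.03 on the log2 scale in HOXA9_KO (SE; edgeR, adjusted p = 1.51e-08). In MEIS1_KO SF3A2 and SNRPB were lower, by -0.27 ± 0.07 and -0.19 ± 0.05 (SE; edgeR, adjusted p = 0.0259 and 0.0307). Of 10 nonsense-mediated decay factors, which degrade poison-exon transcripts, 2 were higher and 4 lower in HOXA9_KO, 2 and 2 in SAFB_KO, and none in MEIS1_KO, near the shares over all genes. Over genes of at least 20 CPM the shares were 48.4% and 28.3% in HOXA9_KO, and 42.4% and 14.2% in SAFB_KO. SMG8 rose by 0.45 ± 0.05 and UPF1 by 0.25 ± 0.04 in HOXA9_KO, while UPF2 fell by 0.31 ± 0.04 on the log2 scale (SE; edgeR, adjusted p = 4.67e-11, 4.55e-07 and 9.45e-10). The SAFB relatives SAFB2 and SLTM rose in SAFB_KO, by 0.35 ± 0.06 and 0.16 ± 0.04 (SE; edgeR, adjusted p = 8.86e-07 and 3.63e-04).

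**Figure D5:**
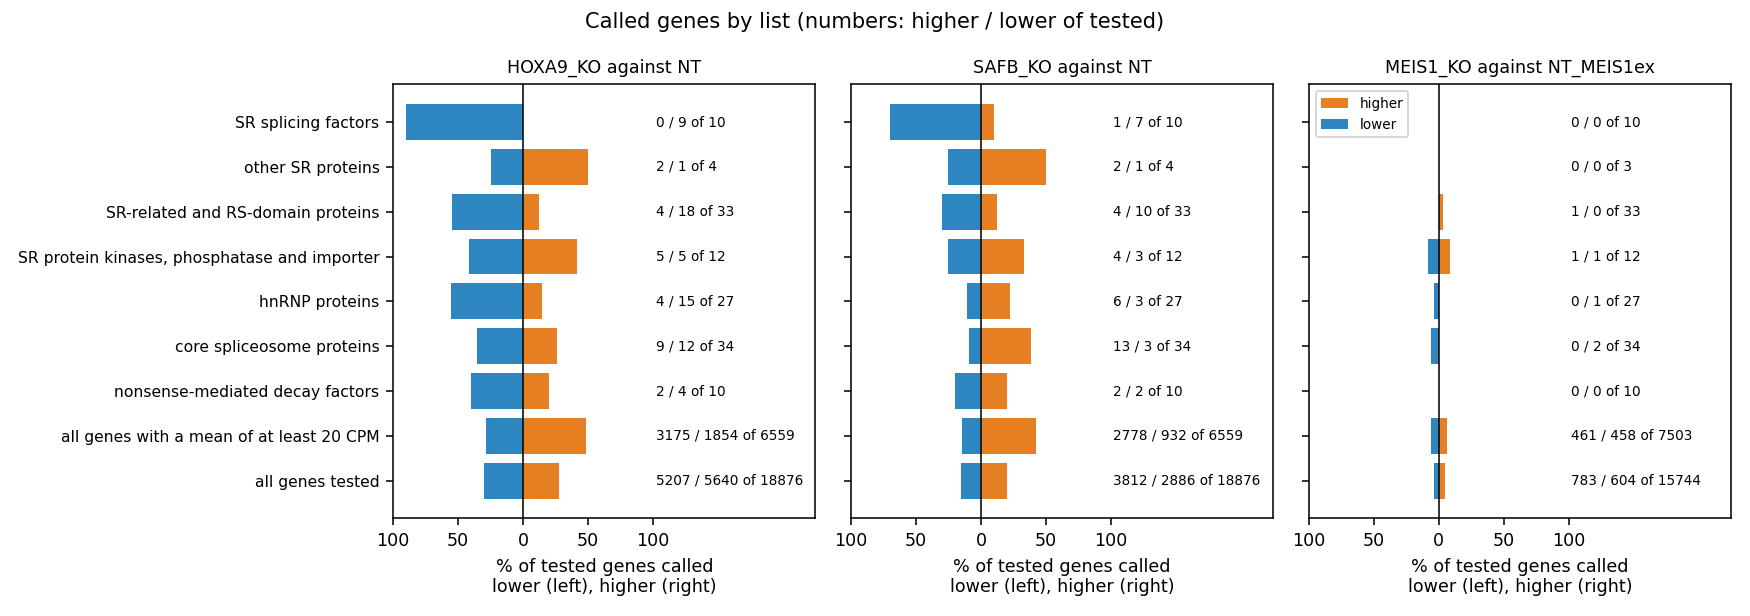
Percent of the tested genes of each list called lower (left bars) or higher (right bars) in each knockout against its controls, with the counts printed at the right as higher / lower of tested. The 10 SR splicing factors have 9 lower in HOXA9_KO and 7 lower in SAFB_KO, beside 29.9% and 15.3% of all genes tested.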

How the data were processed

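Total RNA of MOLM13 cells had been depleted of ribosomal RNA, made into strand-specific libraries and sequenced in pairs of 150-base reads, per the labels' protocols. Per the submitters' processing notes, the tools were STAR 2.7.10a, HTSeq 1.99.2, Trim Galore and bedtools, with the hg38 build. Sources used here do not give the strand setting or the annotation release. What the authors deposited are raw whole-number counts per gene, 1 file per library, in the MEIS1 experiment as tab-separated files other than their comma-separated name says.

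Gene symbols, exons and coordinates were taken from GENCODE 29 (GRCh38), with 57940 of 58278 identifiers found. Low counts were removed by filterByExpr (minimum 10, total 15), TMM factors were computed, and edgeR 4.0.16 (R 4.3.3) gave robust quasi-likelihood F tests with Benjamini-Hochberg adjustment over all tested genes; a call is an adjusted p under 0.05. The test returns no SE, and each SE given is the absolute log2 difference divided by the square root of F. Separate fits were made for the 9 libraries with HOXA9_KO and SAFB_KO, for the 8 with MEIS1_KO, and for all 17 to compare effects, with biological coefficients of variation of 4.63%, 6.75% and 5.92%. The model was also run on counts simulated from its own estimates of the spread, which does not test those estimates. Alternatives were DESeq2 1.42.0, limma-voom (limma 3.58.1), other scaling and filters, libraries left out and a replicate block. Genes named outside the family are up to 3 per list and comparison with the smallest p, the SAFB family, HOXA9, MEIS1 and the 5 nearest in profile. Members and lists were chosen with earlier results of these data known; the promoters shown and the group of genes of at least 20 CPM were chosen after values were seen. No 2 libraries of a group agreed within sampling noise.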

Additional observations from a re-analysis of the deposited data

Results flagged for a closer look

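In groups of 4 libraries, a library was marked where its gap to the nearest other library, divided by the range of the group, exceeded Dixon's 95% critical value; chance marks about 1 in 20 such groups, and 20 groups were examined. SRSF2 in NT_MEIS1ex was marked (ratio 0.868), with replicate 1 at 159.6 CPM and the other libraries at 175 to 178 CPM. SRSF4 in NT_MEIS1ex was marked as well (ratio 0.836), with the same replicate 1 at 77.2 CPM and the other libraries at 65.9 to 67.7 CPM.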

How the results depend on the processing

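For HOXA9_KO against NT, 9 members were lower in all alternatives except the counts of nuclear protein-coding genes as library size (10), and leaving out a library gave 9 to 9 lower and 0 to 1 higher; members minus the median of all genes ran from -0.42 to -0.28. For SAFB_KO against NT, members lower were 3 with DESeq2, 5 with RLE factors or no filter, 6 with only the groups compared, 8 with a mean of at least 2 CPM, 9 with protein-coding library size and 4 to 7 with a library left out; members higher were 0 with a mean of at least 2 CPM, no filter, protein-coding library size or only the groups compared, and 0 to 1 with a library left out. For the SAFB effect minus the MEIS1 effect, members lower were 1 with DESeq2, RLE factors, no filter or mitochondrially encoded genes removed, 5 with a mean of at least 2 CPM, 8 with protein-coding library size and 0 to 3 with a library left out; members higher were 1 with DESeq2, limma-voom, RLE factors or mitochondrially encoded genes removed, and 0 to 1 with a library left out. With protein-coding library size, members higher in HOXA9_KO than in SAFB_KO were 0, and all genes called higher and lower were 2861 and 9293 (HOXA9_KO), 1712 and 5535 (SAFB_KO), 2449 and 5845 (HOXA9_KO against SAFB_KO), 1867 and 7777 (HOXA9 minus MEIS1 effect) and 612 and 3496 (SAFB minus MEIS1 effect); with a mean of at least 2 CPM, 1423 genes were higher in the last. Leaving out a library of the MEIS1 experiment gave 487 to 944 genes higher, 264 to 828 lower and 0 to 1 members lower, the fewest genes without MEIS1_KO replicate 3; genes lower were 362 and 327 without MEIS1_KO replicate 1 or 2, and 388 and 324 without NT_MEIS1ex replicate 3 or 4. Direction turned for TRA2A in HOXA9_KO (-0.019 with a mean of at least 2 CPM, -0.21 with protein-coding library size, -0.053 to 0.18 with a library left out, lowest without NT replicate 3 and highest without NT replicate 1), for SRSF1 in SAFB_KO (-0.050, -0.13 and -0.00115 with a mean of at least 2 CPM, protein-coding library size and only the groups compared, -0.019 to 0.030 with a library left out), for SRSF6 in SAFB_KO (-0.051 with protein-coding library size), and in MEIS1_KO for SRSF3 (0.00268 with protein-coding library size, -0.059 to 0.00695 with a library left out) and SRSF4 (-0.076 to 0.00416 with a library left out); the cause was not tested. Deviations of same-numbered libraries correlated between -0.41 and 0.22 over genes. Differently numbered libraries were not compared, so these values cannot tell whether replicate numbers pair the libraries. With the replicate number as a block, members lower were 9 in HOXA9_KO, 7 in SAFB_KO and 0 in MEIS1_KO, and genes lower in MEIS1_KO were 466 in place of 604. The common coefficient of variation over genes was 6.75% in the MEIS1 experiment and 4.63% in the other.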
